A study of Mus musculus with 131 samples.

Results

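The major urinary proteins (MUPs) are small lipocalins, barrel-shaped carriers of hydrophobic molecules, that mouse hepatocytes secrete into the blood and the kidney passes into the urine. In urine they bind volatile pheromones and release them slowly from scent marks, and some act as signals themselves. *Mup20* encodes darcin, the male protein that attracts females. Their transcription is higher in males, begins around puberty, and depends on androgen through the male rhythm of growth hormone secretion, which acts by way of the factor STAT5B. The genes form a tandem cluster on chromosome 4.

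Of the 24397 rows of the expression table, 9 carry the name of *Mup20*, *Mup3*, *Mup21*, *Mup7*, *Mup19*, *Mup14* or *Mup2*. These 7 genes belong to a family of 21 *Mup* genes (24 rows) in the table, which lie between chr4:59969677-61811875 on mm9, a span of 1.84 Mb. *Mup2* has 3 rows, of which 2 span other *Mup* genes. The members were chosen from the expression values of the same libraries, including their differences between conditions and their values listed at 0. All their expression values are therefore given here as a description, without a test. All 9 rows passed the filter on low values (1 FPKM or more in the mean of some condition).

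The study asked whether the loss of DNA methylation after birth is needed for hepatocytes to mature. RNA-Seq values (FPKM, fragments per kilobase of transcript, scaled to the mapped fragments of a library, so levels of different genes are compared per length) could be assigned for 18 hepatocyte libraries of C57Bl mice. Uninjected WT mice were sampled at 1 week (1 library), 3 weeks (3 libraries) and 15 weeks (3 libraries). All other mice were 15 weeks old and had been injected with virus at 1 day or at 3 weeks of age. The knockouts (DKO) were *Tet2*F/*Tet3*F mice given AAV8 that carries Cre under the hepatocyte promoter of *Tbg*, with 3 libraries injected at 1 day and 2 at 3 weeks. TET2 and TET3 oxidise methylated cytosine, a step towards its removal. The injected controls are labelled WT with the CRE virus, with 3 libraries for each injection time. The sources do not give the floxed alleles of these controls. Hepatocytes were purified on Percoll and by sorting cells without the leukocyte protein CD45.

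The summed FPKM ranged from 281799 to 393801, and the spacing of low values gave relative depths of 0.753 to 1.05. *Tet2* and *Tet3* were not lower throughout in the DKO. *Tet2* was at 0.890 to 2.13 FPKM in the controls injected at 1 day and at 2.82 to 4.08 in their DKO. Cre removes only part of each gene, so the FPKM of the whole gene checks nothing. The female transcript *Xist* was at 48.0 to 77.1 FPKM in all 3 libraries of 3 weeks and at 88.1 in the third control injected at 3 weeks, with the Y-linked genes at or near 0. In the other 14 libraries *Xist* was at 0.0609 FPKM or less and the Y-linked genes were expressed. Age and sex therefore cannot be told apart between 3 and 15 weeks, and results at 3 weeks of injection are given with and without the *Xist* library. Of the hepatocyte markers, *Alb* is listed at 0 in all 18 libraries and *Serpina1a* in all adult ones, while the summed markers were at 15774 to 21805 FPKM in the controls injected at 1 day and 15515 to 21974 in the DKO. Summed markers of leukocytes and Kupffer cells were at 3.20 to 5.50 FPKM in these controls and 1.31 to 2.57 in the DKO, those of endothelium at 1.81 to 3.01 and 1.06 to 1.89, and those of erythroid cells at 0.139 to 2.60 and 1.35 to 2.28. Stellate and cholangiocyte markers summed to at most 2.77 FPKM in both.

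The members fall into 2 groups by their sequence. *Mup7*, *Mup19*, *Mup14* and *Mup2* belong to the 15 genes in the middle of the cluster, whose coding sequences are 98.3% to 99.8% identical to each other. *Mup20*, *Mup3* and *Mup21* lie side by side at its end, are 87.5% to 94.8% identical to each other and 82.9% to 91.4% identical to the middle genes. The reads were single reads of 50 bases. Every window of 50 bases of the *Mup2* and *Mup19* transcripts occurs in another *Mup* transcript, and only 2.40% of those of *Mup14* and 5.69% of those of *Mup7* do not. By contrast, 95.3% of the windows of *Mup20*, 84.1% of *Mup3* and 80.9% of *Mup21* are found in no other *Mup* transcript. No protein-coding transcript of another gene shared such a window. Against the genome of the cluster, however, only 13.1% of the *Mup20* windows within a single exon occur once. For *Mup3* and *Mup21* the shares were 75.6% and 69.4%. The pseudogene *Mup-ps19* holds a copy of part of *Mup20*. The following window, read from the coding sequences of the annotation (GENCODE, mm9), is 1 read long and lies near the end of the coding sequence. The form in *Mup14*, at its coding bases 485 to 534, is carried unchanged by 16 *Mup* genes, while those of *Mup20* and *Mup3* (3 differences each) and *Mup21* (4 differences) each occur in 1 gene. Capitals mark the bases that differ from *Mup14*.
Mup14: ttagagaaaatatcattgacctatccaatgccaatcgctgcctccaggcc
Mup20: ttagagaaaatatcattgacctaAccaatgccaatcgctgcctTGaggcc
Mup3: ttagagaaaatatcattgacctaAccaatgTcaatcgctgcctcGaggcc
Mup21: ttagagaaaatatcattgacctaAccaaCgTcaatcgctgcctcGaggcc

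The members of the middle are listed at 0 in nearly all adult males without the deletion. In all 3 uninjected WT libraries of 15 weeks and all 3 controls injected at 1 day, the rows of *Mup7*, *Mup14*, *Mup19* and *Mup2* stand at exactly 0. In the controls injected at 3 weeks *Mup7*, *Mup14* and the narrow row of *Mup2* were at 0 in both libraries without *Xist* and at 526, 583 and 841 FPKM in the third. *Mup19* was there at 1783, 0 and 949 FPKM. In the DKO, none was at 0.

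Across the family, 18 of 24 rows had a 0 in at least 1 of the 8 adult libraries with Y-linked RNA and without the deletion. The 6 rows without a 0 were those of *Mup4*, *Mup6*, *Mup5*, *Mup20*, *Mup3* and *Mup21*, the genes with 80.9% to 98.2% of windows of their own. Of the values of the 18 rows, 52 of 54 were at 0 in WT of 15 weeks and 53 of 54 in controls injected at 1 day, against 0 of 54 in the DKO injected at 1 day, 0 of 36 in those injected at 3 weeks and 0 of 54 in WT of 3 weeks. The 3 exceptions lay at 3909 to 4832 FPKM. Over all rows of the table a value of 0 in some library goes with 100 FPKM or higher elsewhere for 50 rows, and 21 of them are *Mup* rows. These include *Mup4*, *Mup5* and *Mup6*, whose only values of 0 were in WT of 1 or 3 weeks. Among the libraries injected at 1 day, the rows at 0 went with the sum of *Mup20*, *Mup3* and *Mup21*, with 17 or 18 such rows in controls at 14228 to 23304 FPKM and none in DKO at 3082 to 4291. The DKO injected at 3 weeks, at 8271 and 11033 FPKM, had none, while the WT of 15 weeks, at 7195 to 8185, had 16 to 18. A listed 0 may be a failed estimate and not a measured absence, and the sources do not say which. What sets these values was not tested, and no direction between the DKO and the controls is drawn for *Mup7*, *Mup14*, *Mup19* and *Mup2*.

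**Figure D1:**
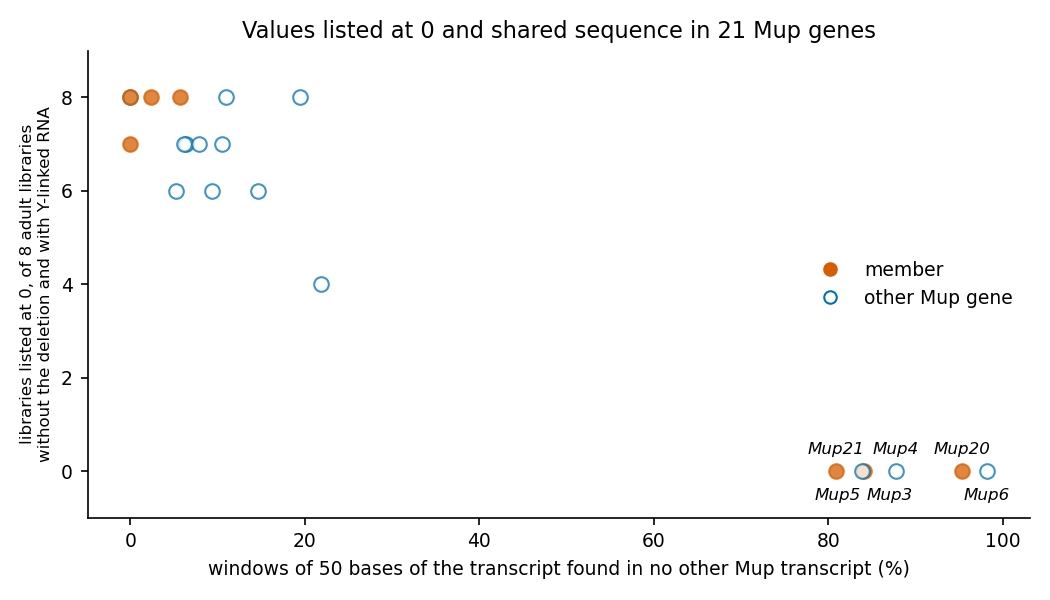
Each point is 1 of 21 *Mup* genes, with the share of its 50-base windows found in no other *Mup* transcript on the x axis (%) and the number of 8 adult libraries without the deletion and with Y-linked RNA in which it is listed at 0 on the y axis. The 6 genes without a 0 lie at 80.9% to 98.2% and all others at 21.9% or less, where 4 to 8 libraries are at 0.

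Where they were listed above 0, the 4 members of the middle kept close to each other. They share 94.3% to 100% of their windows of 50 bases with other *Mup* transcripts. Their values are therefore not 4 separate measurements, and their likeness does not show that the genes vary together. In the DKO injected at 1 day, *Mup7* was at 242, 295 and 161 FPKM, *Mup14* at 214, 264 and 154, *Mup19* at 222, 269 and 158 and the narrow row of *Mup2* at 211, 255 and 151. The second library was the highest and the third the lowest for each of them, as was also the case for *Mup20*, *Mup3* and *Mup21*. In the DKO injected at 3 weeks they were at 323 and 492, 345 and 570, 519 and 862, and 488 and 825 FPKM in the same order. These means were 1.75 times (*Mup7*) to 3.19 times (*Mup19* and *Mup2*) those of the DKO injected at 1 day, without overlap, as were 27.6% of all rows tested.

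*Mup20*, *Mup3* and *Mup21* were listed above 0 in every library, and in adult males they were among the most abundant rows of the table. How reads were divided between *Mup20* and its copy in *Mup-ps19* is not known. In uninjected WT of 15 weeks *Mup20* was at 3065, 3957 and 3250 FPKM, *Mup3* at 3760, 3590 and 3386, and *Mup21* at 712, 638 and 559. The first 2 did not differ beyond their spread (3424 ± 471 and 3579 ± 187, SD, n = 3), and *Mup21* (637 ± 76.3) lay below both in each library. *Mup20* ranked between 9 and 13 among all rows of these libraries and *Mup21* between 59 and 73. The other family genes without a 0 were far lower, *Mup4* at 82.8 to 91.6, *Mup5* at 68.6 to 76.0 and *Mup6* at 32.2 to 44.8 FPKM.

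When *Tet2* and *Tet3* were deleted at 1 day, all 3 were lower than in the injected controls. *Mup20* was at 8515, 8173 and 14255 FPKM in the controls and at 1508, 1693 and 1040 in the DKO. *Mup3* was at 5114, 5078 and 7590 against 1678, 2054 and 1649. *Mup21* was at 1097, 977 and 1460 against 442, 544 and 393. The groups did not overlap for any of them, and the third control was the highest library of each.

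The means were 7.30-fold lower for *Mup20* (10314 ± 3417 against 1414 ± 337 FPKM, SD, n = 3 each), 3.30-fold for *Mup3* (5927 ± 1440 against 1794 ± 226) and 2.56-fold for *Mup21* (1178 ± 252 against 459 ± 77.2). Over all rows tested, 29.2% were lower without overlap in this comparison, which helped to choose the members. The fitted differences on the log2(FPKM + 1) scale were -2.85 (SE 1.03), -1.70 (SE 0.40) and -1.35 (SE 0.43), beside a median of -0.11 over all rows. The relatives *Mup4*, *Mup5* and *Mup6* were also lower without overlap, by 3.55-fold, 4.31-fold and 6.73-fold. In bulk hepatocytes, fewer expressing cells and less RNA per cell cannot be told apart.

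The size of the difference depended on the controls. The controls injected at 1 day lay above the uninjected WT of the same age, without overlap, by 3.01-fold for *Mup20*, 1.66-fold for *Mup3* and 1.85-fold for *Mup21*, as did 7.58% of all rows tested. Against the uninjected mice, a comparison chosen after the data were seen, the DKO were lower by 2.42-fold, 2.00-fold and 1.39-fold, and again no library overlapped, which held for 32.5% of all rows. The fitted differences were then -1.30, -1.002 and -0.48.

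**Figure D2:**
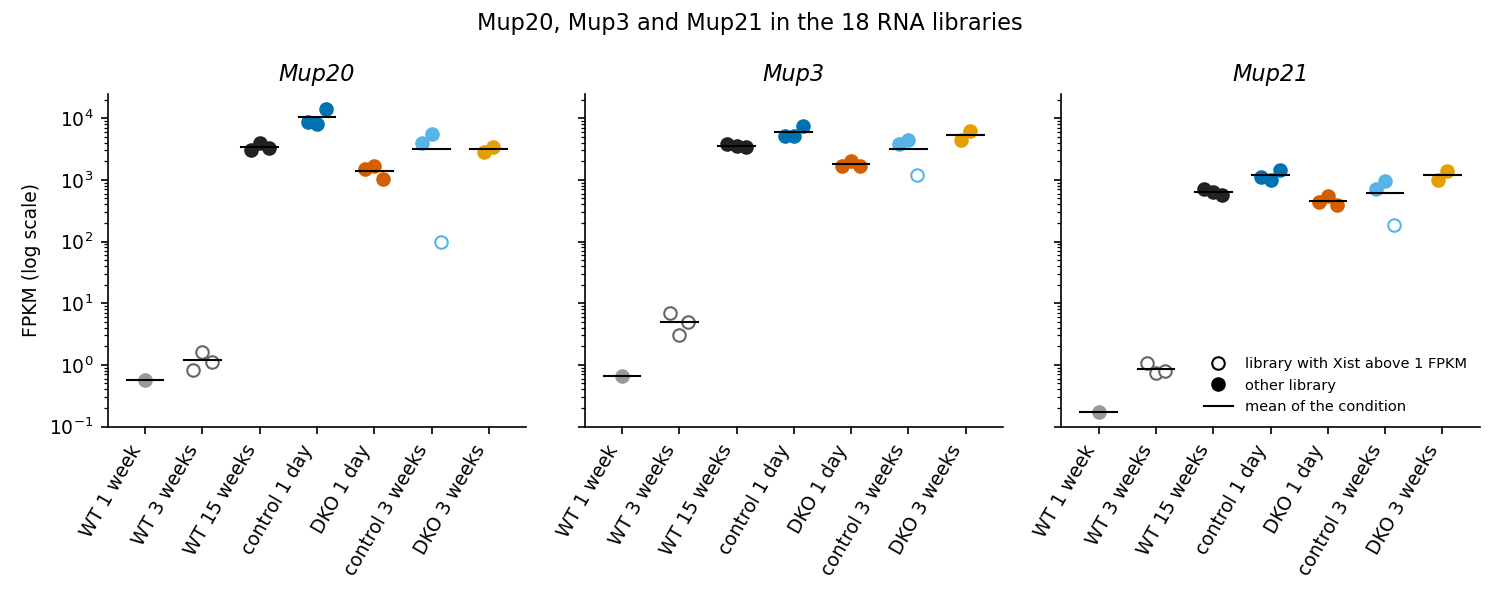
FPKM of *Mup20*, *Mup3* and *Mup21* in each of the 18 libraries by condition, on a log axis, with short lines at the means and the libraries with *Xist* drawn as their own symbol. The 3 DKO libraries injected at 1 day lie below all 6 uninjected and injected adult males of the same comparison, and the 3 libraries of 3 weeks lie at 6.90 FPKM or less.

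Deletion at 3 weeks gave another picture. *Mup20* was at 3904, 5526 and 98.8 FPKM in the controls and at 2876 and 3359 in the DKO, so the groups overlapped, and the lowest control was the library with *Xist*. *Mup3* was at 3850, 4374 and 1186 against 4404 and 6284, and *Mup21* at 703, 953 and 185 against 991 and 1390. Both DKO libraries lay above every control for *Mup3* and *Mup21*, by 1.70-fold and 1.94-fold in the means, a pattern that 16% of all rows tested showed and that also entered the choice of members. The summed hepatocyte markers were higher as well, at 20599 to 26265 FPKM in these DKO against 15208 to 16877 in the controls, and their part in the result was not tested.

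Without the *Xist* library, *Mup20* was 1.51-fold lower in the DKO, without overlap, while *Mup3* and *Mup21* were still 1.30-fold and 1.44-fold higher. With 2 libraries against 2, 38.4% of all rows tested were lower and 21.2% higher without overlap. *Mup4* was then 1.56-fold higher, *Mup6* 1.53-fold lower and *Mup5* overlapped. The fitted log2 differences with all libraries were 1.27 (SE 1.15) for *Mup20*, 0.95 (SE 0.44) for *Mup3* and 1.23 (SE 0.48) for *Mup21*, and that of *Mup20* became -0.58 without the third control. Compared with the DKO injected at 1 day, those injected at 3 weeks were 2.21-fold, 2.98-fold and 2.59-fold higher.

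The proportions between members moved as well. *Mup20* stood at 1.66, 1.61 and 1.88 times *Mup3* within the controls injected at 1 day and at 0.899, 0.824 and 0.630 times in the DKO. In the DKO injected at 3 weeks it stood at 0.653 and 0.534 times, against 1.01 and 1.26 times in the controls without *Xist* and 0.083 times in the control with it. In uninjected WT of 15 weeks the ratio was 0.815, 1.10 and 0.960. *Mup20* was thus below *Mup3* in all 5 DKO libraries and above it in all 5 injected controls without *Xist*. Reads that also match *Mup-ps19* may enter these ratios to an unknown extent. The ratio of *Mup21* to *Mup3* stayed between 0.153 and 0.265 in all 18 libraries.

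**Figure D3:**
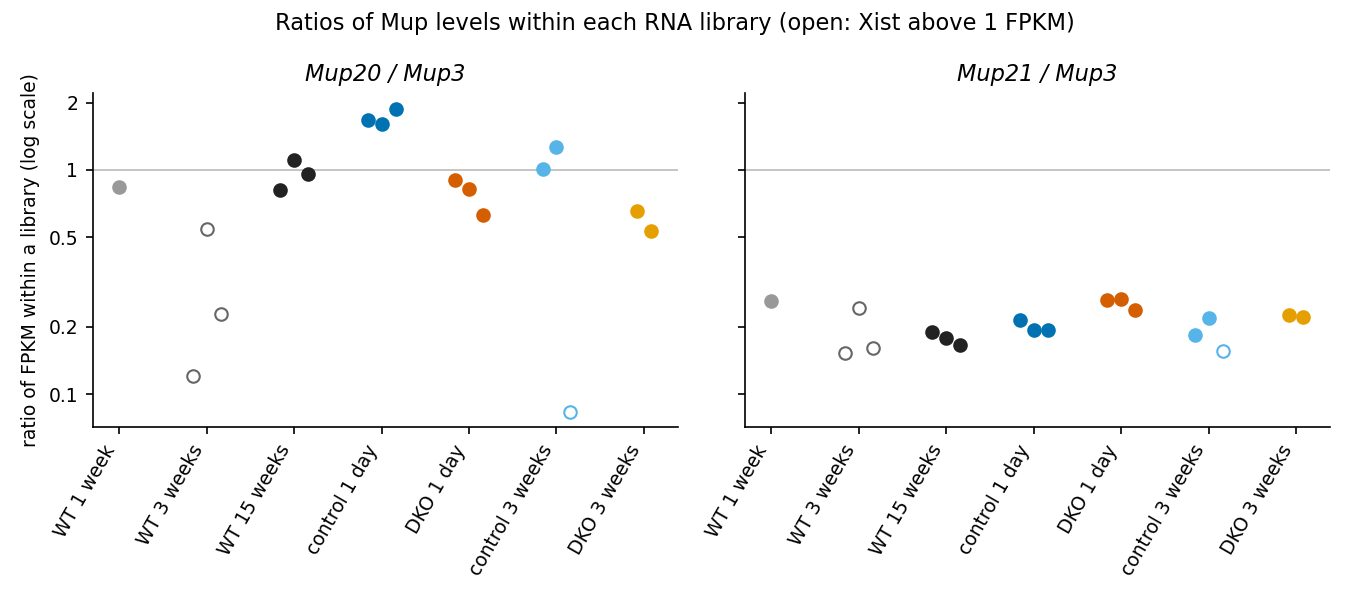
Ratio of *Mup20* to *Mup3* FPKM and of *Mup21* to *Mup3* FPKM within each library, by condition, on a log axis. The 5 DKO libraries lie between 0.534 and 0.899 for *Mup20* over *Mup3*, and the injected controls without *Xist* between 1.01 and 1.88.

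The control with *Xist* gives the levels of a female-pattern adult beside 2 males of its group. Its *Mup20* was 47.7-fold below the mean of the other two, *Mup6* 10.9-fold, *Mup21* 4.48-fold, *Mup3* 3.47-fold, *Mup4* 3.37-fold and *Mup5* 2.78-fold. With 1 library, this has no replicate check. It still lay 82.5-fold (*Mup20*), 240-fold (*Mup3*) and 215-fold (*Mup21*) above the mean of the 3 female-pattern libraries of 3 weeks.

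Young mice had little RNA of the members. At 1 week *Mup20*, *Mup3* and *Mup21* were at 0.562, 0.669 and 0.173 FPKM in a single library with Y-linked RNA. At 3 weeks *Mup20* was at 0.831, 1.64 and 1.12 FPKM, *Mup3* at 6.90, 3.00 and 4.92, and *Mup21* at 1.06, 0.730 and 0.788. The rows of *Mup7*, *Mup14* and *Mup19* and the narrow row of *Mup2* lay between 0.366 and 1.56 FPKM there, so at this age the near-identical genes were all listed above 0. The means at 15 weeks were 2859-fold, 724-fold and 742-fold those at 3 weeks for *Mup20*, *Mup3* and *Mup21*. No library overlapped, as was the case for a higher value in 32.3% of all rows tested, and the fitted log2 differences were 10.61 (SE 1.03), 9.29 (SE 0.40) and 8.42 (SE 0.43). Summed erythroid markers were at 8.23 to 12.0 FPKM at 3 weeks and 0.0446 to 0.172 at 15 weeks. Those of leukocytes and Kupffer cells were at 3.03 to 7.78 and 0.922 to 1.25, and those of endothelium at 5.90 to 9.63 and 1.10 to 2.77. Stellate and cholangiocyte markers overlapped between these ages. The part of other cells in these values was not tested, and age and sex cannot be told apart here.

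Over the 18 libraries, *Mup3* and *Mup21* followed each other most closely (Pearson r = 0.997 on log2(FPKM + 1)), with *Mup20* at 0.977 and 0.984. Among 9802 other genes, those most like *Mup20* were the complement gene *C6* (0.9897), the coenzyme A hydrolase *Nudt7* (0.983), the organic anion transporter *Slco1a1* (0.978), the NADPH oxidase *Nox4* (0.974) and the aldehyde oxidase *Aox3* (0.972). *Slco1a1* was closest to *Mup3* (0.993) and to *Mup21* (0.991), and *Ces3b*, *Plekhb2* and *Nox4* stood among the nearest 5 of both. *C6* was at 140 FPKM in the controls injected at 1 day and 57.8 in the DKO, while *Nox4* was at 9.48 and 8.50. These correlations are a description over libraries that share the step between young and adult mice.

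The genes that control *Mup* transcription, or share its sex bias, were then examined by limma across 11166 rows. Of 20 tested genes of growth hormone signalling and *Mup* regulation, 5 fell and 0 rose in the DKO injected at 1 day, where 15.6% of all rows fell and 4.33% rose, and the list's median log2 difference was -0.18. The 5 were *Cebpb*, a factor of the acute-phase and metabolic response (mean 45.0 against 83.7 FPKM, adjusted p = 0.00281), *Zhx2*, a repressor of fetal liver genes that also raises *Mup* expression (2.45 against 4.10, adjusted p = 0.00629), the growth hormone target *Igf1* (63.3 against 101, adjusted p = 0.0337), the hepatocyte factor *Hnf4a* (82.2 against 126, adjusted p = 0.0362) and *Stat5b* (9.75 against 14.9, adjusted p = 0.0453). The STAT5-induced inhibitors *Cish* (20.6 against 5.99, adjusted p = 0.0924) and *Socs2* (15.0 against 3.03, adjusted p = 0.0821) did not pass the test. The count of 5 became 2 without the third control or without the second DKO library.

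Of 13 male-biased genes, 6 fell and 0 rose, with a median of -0.69. They were the fatty acid elongase *Elovl3* (15.4 against 183 FPKM, adjusted p = 0.0202), the steroid enzyme *Hsd3b5* (13.2 against 93.7, adjusted p = 0.0253), *Gstp1* (252 against 1110, adjusted p = 0.0161), *Susd4* (0.634 against 5.84, adjusted p = 0.000171), the oxysterol hydroxylase *Cyp7b1* (29.3 against 110, adjusted p = 0.0054) and *Slco1a1* (74.7 against 120, adjusted p = 0.0462). *Cyp4a12a*, a male fatty acid hydroxylase, was at 430 against 243 (adjusted p = 0.66). The count of 6 became 2 without the third control or without the third DKO library, and 3 without the first library of either group.

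Of 16 female-biased genes, 1 rose and 1 fell. The one that fell was *Cyp2a4*, a steroid hydroxylase, at 6.90 FPKM against 65.5 (limma adjusted p = 0.00307). The median of the list was 0.38. Of 8 tested relatives in the lipocalin family, *Orm3* (69.3 against 9.41, adjusted p = 0.00159) and *Ambp* (2875 against 2027, adjusted p = 0.0353) rose and none fell. Their median was -0.22.

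In the DKO injected at 3 weeks, where 0.905% of all rows rose and 4.34% fell, *Stat5a* (2.62 against 6.52 FPKM, adjusted p = 0.0331) and *Stat5b* (8.30 against 15.4, adjusted p = 0.0397) fell among the regulators, with limma as before. The male-biased *Ugt2b38* rose (184 against 115, adjusted p = 0.0394), the female-biased *Cyp2a4* fell (23.7 against 196, adjusted p = 0.0449, but against 69.04 with an adjusted p of 0.0501 without the *Xist* libraries), and of the lipocalins *Ptgds* fell (1.78 against 4.60, adjusted p = 0.0441, and 0.0594 without them). Without the *Xist* libraries, where 1.29% of all rows rose and 5.26% fell, 3 male-biased genes rose and 2 fell, and 3 female-biased genes rose and 0 fell. Of the uninjected mice only those of 3 weeks had *Xist*, so between 3 and 15 weeks age and sex cannot be told apart. Between these ages 24% of all rows rose and 9.32% fell. There 11 of 13 male-biased genes rose and 10 of 16 female-biased genes fell, with medians of 5.65 and -1.63. *Zhx2* rose from 1.80 to 3.35 FPKM (adjusted p = 0.00103), and *Cux2*, a repressor of male-biased genes in female liver, fell from 13.7 to 0.00632 (adjusted p = 8.95e-05).

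Scaling bears on these counts. In the DKO injected at 1 day 483 rows rose and 1745 fell (21.7% of calls higher). With libraries scaled to their median ratio 1332 rose and 1453 fell (47.8%). For deletion at 3 weeks the split was 101 to 485 (17.2%) and became 681 to 628 (52.0%), and from 3 to 15 weeks it was 2678 to 1041 (72.01%) and became 2033 to 1829 (52.6%). The values of *Mup20*, *Mup3* and *Mup21* kept their direction under this scaling in all 3 comparisons.

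Genes beside the cluster were examined as well. Of the 10 nearest other genes on each side, 13 were tested, and 0 rose or fell past the limma test in either DKO comparison. The largest differences after deletion at 1 day were those of *Ugcg* (7.54 against 3.92 FPKM, adjusted p = 0.0612), *Hdhd3* (6.37 against 9.25, adjusted p = 0.25) and *Cdc26* (6.46 against 9.13, adjusted p = 0.14). From 3 to 15 weeks 3 rose, *Susd1*, *E130308A19Rik* and *Slc31a1*, by 0.39 to 0.53 on the log2 scale, a share near the 24% of all rows that rose.

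Methylation of the cluster was read from whole-genome bisulfite sequencing (WGBS) of 1 library each of newborn WT (1 week), adult WT (15 weeks, uninjected) and adult DKO injected at 1 day. The values are the methylated fraction of CpG readings in tiles of 200 bp, given here in percent, and single libraries allow no test. The 4887 tiles of the cluster with 3 values averaged 82.0%, 77.9% and 81.8%. Between newborn and adult, 245 of them lost at least 35 points (5.01%), against 1.63% of all autosomal tiles. In the DKO, 207 of the 245 (84.5%) were at least 35 points above the adult WT, against 70.6% of such tiles in the genome. The order of these shares depended on the limit. With 25 points they were 80.3% and 56.1%, but with 50 points 74.8% in the cluster and 78.5% in the genome. Of the lost tiles, 26 (10.6%) lay inside the *Mup* genes, which hold 6.53% of all tiles of the cluster, and 219 outside. In 14 tiles methylation was at least 35 points higher in the adult.

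All 7 members had a lost tile in the promoter (1 kb upstream to 100 bp downstream of the start), as did 19 of all 21 *Mup* genes. The share over all promoters was not counted. In the middle of the cluster the promoters went from nearly full methylation to low values. The mean went from 89.1% in the newborn to 23.1% in the adult at *Mup19*, from 83.2% to 27.3% at *Mup14*, from 93.4% to 36.2% at *Mup2* and from 81.9% to 38.4% at *Mup7*, and stood at 82.0%, 73.7%, 82.0% and 74.0% in the DKO. All 15 genes of the middle shared this pattern, with newborn means of 77.1% to 93.4%, adult means of 16.6% to 44.0% and DKO means of 73.7% to 83.7%. Of their 73 promoter tiles 52 were lost, and 48 of these were higher in the DKO. Reads from near-identical copies cannot be placed with certainty, so these promoters are not independent of each other. The promoters of *Mup4* and *Mup5* had no lost tile and stayed at 76.0% and 87.9% in the adult.

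**Figure D4:**
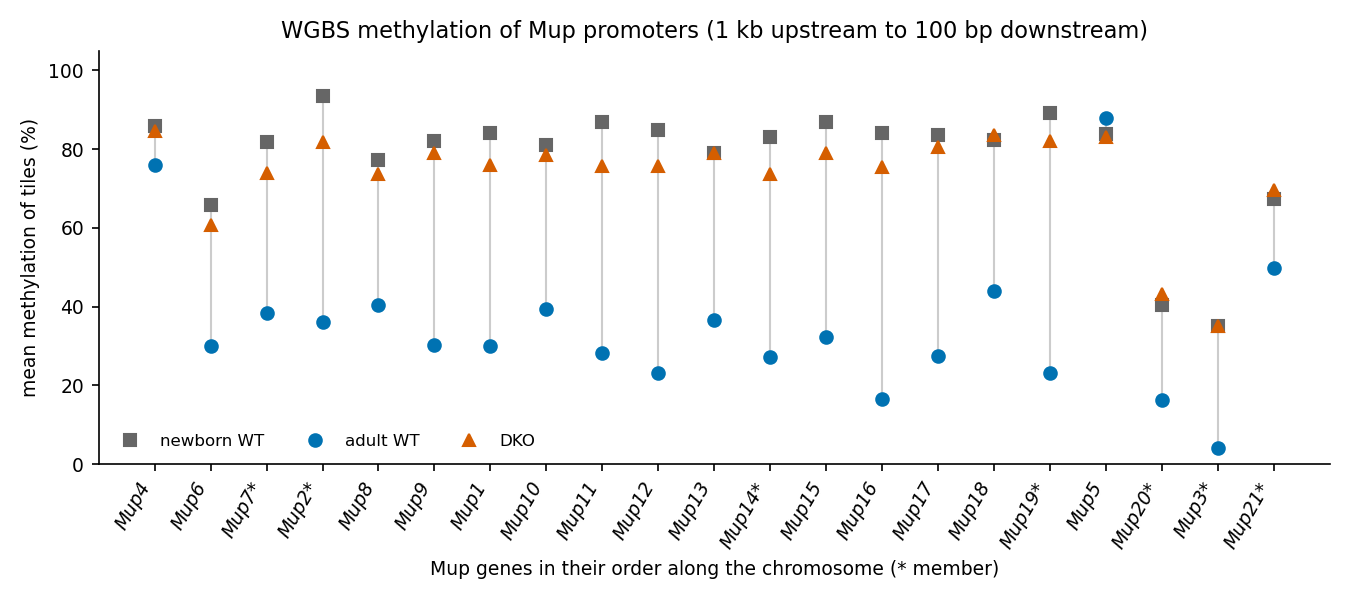
Mean methylation (%) of the promoter tiles of each *Mup* gene in order along the cluster, in newborn WT, adult WT and DKO. The adult values of the 15 middle genes lie between 16.6% and 44.0% and the newborn and DKO values between 73.7% and 93.4%.

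*Mup3* had the most lost tiles of the 21 genes. In its body with 1 kb upstream, 11 of 15 tiles were lost, and 9 of these were higher in the DKO, with means of 74.8%, 20.3% and 69.5% in newborn, adult and DKO. The tile over its start went from 85.9% to 6.78% and was at 79.1% in the DKO, and the next tile with a value, inside the gene, from 100% to 0% and 70.8%. Upstream of the start, the tiles 724 and 924 bp away were already at 9.52% and 0% in the newborn and stayed low in adult (0% and 0%) and DKO (11.1% and 5.88%).

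*Mup20* and *Mup21* lost methylation over the start and less in the body. The start tile of *Mup20* went from 95.7% to 46.4% and was at 79.4% in the DKO, the only lost tile of 17 in its body and upstream kilobase, and that of *Mup21* from 70% to 22.7% and 71.9%. The tile 908 bp upstream of *Mup20* was at 2.56%, 0% and 4.88% in the 3 libraries, as low before the gene was expressed as after. Of the windows of 50 bases in the *Mup20* gene only 9.42% occur once in the cluster, since the pseudogene *Mup-ps19* nearby holds a copy, so part of its body methylation may be shared with that copy. For *Mup3* and *Mup21* 87.9% and 85.8% occur once.

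**Figure D5:**
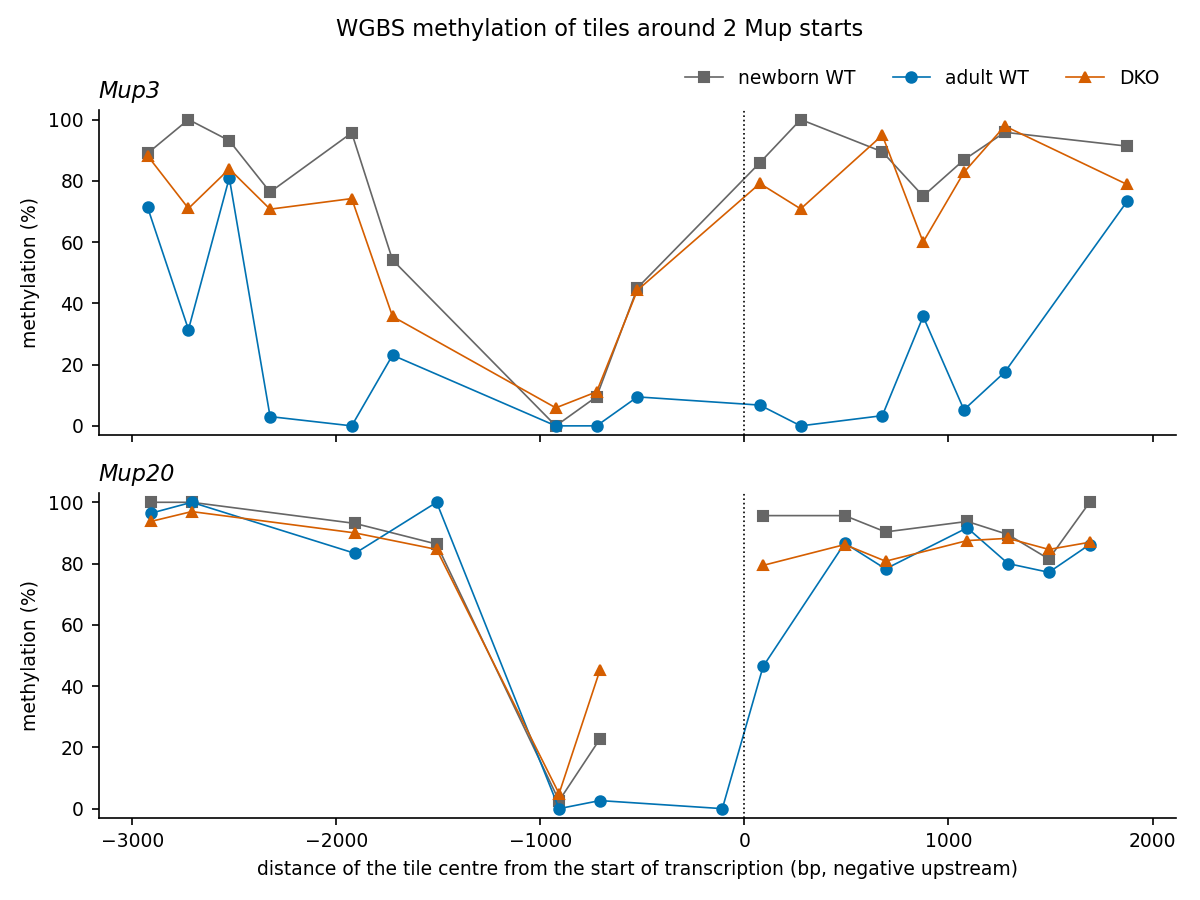
Methylation (%) of each tile against its distance from the start of *Mup3* and *Mup20* in bp, in newborn WT, adult WT and DKO. The adult values drop below the other two from upstream of *Mup3* to within its body, and meet them at the tiles near 0% about 1 kb upstream of *Mup20* and *Mup3*.

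Upstream of the 2 most abundant members, from 1 kb before the start, 7 of 31 tiles within 12 kb of *Mup20* and 10 of 22 within 13 kb of *Mup3* were lost. Between 25 and 40 kb downstream of the *Mup20* start, 14 of 46 were lost. Over the whole cluster 5.01% of tiles were lost, and 1.63% of all autosomal tiles. The stretches differ in length and were not planned in advance, so these counts are a description without a test. The tile at chr4:61750201-61750400, 1924 bp upstream of *Mup3*, was at 95.7% in the newborn, 0% in the adult and 74.2% in the DKO, and that at chr4:61751401-61751600, 3124 bp upstream, at 95.0%, 8.20% and 87.1%. They hold 1 and 4 CpG sites, set in capitals below (mm9, forward strand). The sequences show how few cytosines carry these changes.
Upstream of Mup3, near: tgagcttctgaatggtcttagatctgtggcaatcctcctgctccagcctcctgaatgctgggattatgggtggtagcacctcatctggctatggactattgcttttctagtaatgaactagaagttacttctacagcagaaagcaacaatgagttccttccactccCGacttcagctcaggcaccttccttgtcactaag
Upstream of Mup3, far: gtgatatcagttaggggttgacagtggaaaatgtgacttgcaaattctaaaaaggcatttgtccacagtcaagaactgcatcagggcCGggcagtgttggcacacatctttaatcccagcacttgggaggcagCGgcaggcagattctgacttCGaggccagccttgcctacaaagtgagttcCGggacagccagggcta

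A further element stood out for its CpG sites and its chromatin. It lies between genes, with tiles centred 77492 and 77692 bp downstream of the *Mup20* start. Its tile at chr4:61637401-61637600, with 8 CpG sites, was at 46.1% in the newborn, 4.49% in the adult and 49.1% in the DKO, and that at chr4:61637601-61637800, with 7 sites, at 95.9%, 28.2% and 91.0%. Their sequence on the forward strand of mm9 follows, again with CpG in capitals.
Element, first tile: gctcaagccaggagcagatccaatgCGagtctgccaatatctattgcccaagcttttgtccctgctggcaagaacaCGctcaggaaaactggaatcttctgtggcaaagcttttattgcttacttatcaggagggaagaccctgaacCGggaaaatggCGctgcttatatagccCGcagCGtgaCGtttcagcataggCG
Element, second tile: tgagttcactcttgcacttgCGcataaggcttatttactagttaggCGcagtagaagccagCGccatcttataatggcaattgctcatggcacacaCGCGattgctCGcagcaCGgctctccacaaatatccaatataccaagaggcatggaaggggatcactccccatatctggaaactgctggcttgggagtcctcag

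Replicated mice were measured by reduced representation bisulfite sequencing (RRBS) in tiles of 100 bp, which touches few lost sites. The table lists 520 tiles of the cluster. Over the 405 with values in both groups injected at 1 day, the mean did not differ beyond the spread between mice (91.6% in 2 DKO against 91.8% in 3 controls, exact permutation p = 0.8, adjusted 0.8). Over 388 tiles it was 92.2% in 2 DKO against 90.1% in 3 controls injected at 3 weeks (exact p = 0.2, adjusted 0.6). With 2 mice against 3, a two-sided exact test cannot go below 0.2. Of the tiles, 5 lay inside those lost in WGBS, and 4 of them had a value in a mouse.

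The best covered of them, chr4:61751501-61751600, holds 3 CpG sites in the far tile upstream of *Mup3* printed above. It was at 100% and 91.9% in the mice of 3 weeks, and at 6.58%, 2.31% and 0% in the controls injected at 1 day. The controls injected at 3 weeks were at 6.04%, 0% and 1.85%, the DKO injected at 1 day at 88.0% and 86.5% and those injected at 3 weeks at 89.0% and 95.9%. Controls and DKO did not overlap at either time. The mean over the tiles with values was 82.3 points higher in the DKO injected at 1 day, 87.6 points higher in those injected at 3 weeks and differed by -92.96 points between the controls injected at 1 day (mean 5.69%) and the mice of 3 weeks (98.7%), each with an exact p of 0.2, the smallest possible.

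The animal numbers in the columns are shared between RRBS and RNA-Seq, so the site can be set beside the RNA of the same mice. The DKO mice with 89.0% and 95.9% had 4404 and 6284 FPKM of *Mup3*, and those with 88.0% and 86.5% had 1678 and 2054. The control with *Xist* had 1.85% and 1186 FPKM. Methylation was at 86.5% or more in DKO mice above and in DKO mice below the *Mup3* range of their controls, whose highest value at 3 weeks was 4374 FPKM. These are few mice and a single tile, and whether the site bears on *Mup3* was not tested.

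Histone marks, single libraries of adult WT and of DKO injected at 1 day, covered much of the lost sequence. Peaks of H3K27ac, a mark of active enhancers and promoters, covered 258 of the 4887 tiles in WT (5.28%) and 82 of the 245 lost tiles (33.5%). In the DKO they covered 293 tiles (6.00%) and 72 of the lost (29.4%). Peaks of H3K4me1, a mark of enhancers, covered 252 tiles in WT (5.16%) and 63 of the lost (25.7%). In the DKO they covered more tiles of either kind, 351 (7.18%) and 95 of the lost (38.8%).

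The peak over *Mup3* was the highest of the cluster in both, at 733.6 normalized tags in WT (chr4:61743280-61752164) and 779.1 in DKO. Those at the promoters of *Mup20* and *Mup21* were at 122.9 and 98.2 tags in WT and 196 and 157.6 in DKO. At *Mup19*, *Mup7* and *Mup14* a peak of 85.6, 34.6 and 13.7 tags was called in WT and none in DKO, so 6 member promoters had a peak in WT and 3 in DKO. For H3K4me1 the counts were 2 and 5. Of all 21 *Mup* promoters 8 and 5 had an H3K27ac peak and 5 and 10 an H3K4me1 peak, and of the promoters of all protein-coding autosomal genes 47.4% and 53.6%, and 50.5% and 54.1%. Without replicates these differences have no check, and short reads can rarely be placed with certainty in the near-identical middle genes. Peaks of 5hmC, the product of TET enzymes, came from hepatocytes of WT mice 20 days old. They lay on 8 of the 245 lost tiles (3.27%), beside 2.48% of all tiles of the cluster, and on no member promoter.

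ATAC-Seq, which marks open chromatin, and HNF6, a liver factor, were each measured in 2 WT samples and 2 samples whose hepatocytes lost *Tet2* and *Tet3* after birth. By the paper, ATAC-Seq was made on adult hepatocytes of 15 weeks, with the deletion at 1 day. For HNF6 the sources state neither the age nor the time of the deletion. The labels of both assays name the tissue liver and give no age. Peak numbers varied widely between libraries of 1 genotype. The cluster held 26 and 7 ATAC peaks in WT and 20 and 41 in the knockout, and 5 and 11 HNF6 peaks in WT and 9 and 41 in the knockout, where the files held 4387 to 34665 HNF6 peaks. ATAC peaks lay within the upstream kilobase of *Mup20* (2.98 tags in the first WT, 2.84 and 4.49 in the knockouts) and of *Mup3* (4.06 in the first WT, 4.88 and 5.26). At *Mup3* they lay on the tiles 724 and 924 bp upstream, which were at 11.1% or less in all 3 WGBS libraries. At *Mup20* they lay across the low tile 908 bp upstream and one 708 bp upstream, which was at 22.7%, 2.63% and 45.2% in newborn, adult and DKO.

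Only 4 positions of the cluster had an ATAC peak in all 4 libraries, and none was a promoter. Of these, 1 at chr4:61637261-61637450 reached into the first tile of the CpG-rich element. It had 7.1 and 5.08 tags in WT and 6.98 and 9.42 in the knockouts. This element also had an HNF6 peak in 3 of 4 libraries (13.5 tags in the second WT, 8.59 and 28.3 in the knockouts) and an H3K27ac peak in both (20 and 23.2 tags). At the position 27598 bp downstream of *Mup20* the tile was at 7.14%, 6.06% and 53.5% in newborn, adult and DKO. The other two lay 9729 bp upstream of *Mup5* and 19073 bp upstream of *Mup18*.

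HNF6 was found at the start of *Mup3* in 4 of 4 libraries, with 6.4 and 7.35 tags in WT and 11.2 and 30.5 in the knockouts, centred 74 to 131 bp upstream. At *Mup7* it was found in 3 of 4 (7.36, 15.3 and 12.7 tags), at *Mup20* in 2 of 4 (8.57 in WT and 20.1 in the knockout) and at *Mup21* in 1 of 4 (24.6). HNF6 peaks thus lay at *Mup3*, *Mup7* and *Mup20* in libraries of both genotypes, and at *Mup21* in 1 knockout alone. *Mup14*, *Mup19* and *Mup2* had none. Over 13108 promoters of protein-coding genes on the autosomes, 1.59% to 10.96% had an HNF6 peak in these libraries. The peaks at *Mup3* were centred in the next tile upstream of its start tile, and that next tile had no methylation value. In *Mup3* and its upstream kilobase all 15 tiles with a CpG site had values, so the tile of the peak centres holds no CpG site. The start tile itself, centred 76 bp inside the gene, was at 79.1% in the DKO WGBS library.

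The promoter sequences are shown because each lost methylation, with HNF6 peaks called at *Mup3* and *Mup21* and none called at *Mup14* and *Mup19*. RefSeq (GRCm38.p6) lists promoters for 6 of the 7 members and 14 *Mup* genes, and *Mup20* is missing. The 250 bases before the start of *Mup3* (chr4:62087318-62087567), *Mup21* (chr4:62150842-62151091), *Mup14* (chr4:61303999-61304248) and *Mup19* (chr4:61782225-61782474) are printed on the strand of the genes, the reverse strand. Capitals mark ATCAAT, the core of the HNF6 recognition sequence, and TATATAA, which serves as a box for the general factor TBP.
Mup3: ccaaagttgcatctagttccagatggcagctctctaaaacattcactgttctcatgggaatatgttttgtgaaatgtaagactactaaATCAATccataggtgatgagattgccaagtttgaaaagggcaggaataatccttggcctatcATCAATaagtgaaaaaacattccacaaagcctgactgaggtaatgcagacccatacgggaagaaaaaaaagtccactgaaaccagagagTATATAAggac
Mup21: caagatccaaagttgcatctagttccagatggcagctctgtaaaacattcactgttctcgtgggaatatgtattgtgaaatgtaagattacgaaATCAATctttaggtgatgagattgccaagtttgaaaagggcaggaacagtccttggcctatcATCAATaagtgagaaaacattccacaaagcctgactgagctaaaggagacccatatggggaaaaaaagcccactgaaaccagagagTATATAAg
Mup14: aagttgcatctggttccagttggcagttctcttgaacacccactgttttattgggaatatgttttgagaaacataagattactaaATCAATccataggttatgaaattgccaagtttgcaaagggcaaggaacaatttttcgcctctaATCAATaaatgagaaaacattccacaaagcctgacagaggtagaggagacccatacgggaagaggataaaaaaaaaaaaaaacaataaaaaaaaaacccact
Mup19: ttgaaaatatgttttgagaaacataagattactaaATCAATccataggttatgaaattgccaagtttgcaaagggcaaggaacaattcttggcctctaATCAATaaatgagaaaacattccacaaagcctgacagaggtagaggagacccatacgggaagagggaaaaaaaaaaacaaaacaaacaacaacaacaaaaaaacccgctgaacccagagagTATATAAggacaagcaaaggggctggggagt

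ATCAAT, searched on both strands, was found in 14 of 14 *Mup* promoters and in 6.72% of all 32851 promoters of this length. Each *Mup* promoter held it at 2 places on the gene's strand, 62 bases apart at *Mup3*, *Mup21*, *Mup4* and *Mup6* and 63 bases apart at the others. In *Mup3* the matches begin 162 and 100 bases before the start, and in *Mup19* 215 and 152. TATATAA was found in 4 of 6 members and 11 of 14 *Mup* promoters (3.04% of all). It was not found at *Mup7*, *Mup14* and *Mup11*, whose windows end before or within the stretch that holds it in their relatives. The count therefore does not show that they lack it. Distances from the start likewise depend on where each start is listed. The STAT5 palindrome TTCNNNGAA (7.02% of all) and the C/EBP site TTGCNNAA (9.56% of all) were found in 0 of 14 in this window. The motifs do not overlap each other.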

How the data were processed

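RNA-Seq, WGBS, RRBS and chromatin files of mouse hepatocytes and livers were used as deposited, on mm9. The authors trimmed RNA, ATAC-Seq and ChIP-Seq reads with cutadapt (version 1.15) and aligned them with Bowtie2 (2.2.4), and their FPKM values come from TopHat2 and Cufflinks, per gene, without read counts. The fraction of methylated CpG readings was made by the authors with Trim Galore (0.3.3) and BSMAP (2.74), in 100 bp tiles (RRBS, minimum coverage 10 CpGs) and 200 bp tiles (WGBS, 15 CpGs). The tables give no coverage, so the depth behind each methylation value is unknown. The authors called peaks library by library with HOMER. The deposited files give a score and a normalized tag signal for each peak, with tags scaled to a common total per the file headers. Intervals for these values were therefore not calculated.

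The members and gene lists were chosen with earlier results of these data known. Of the expression and RRBS columns, 49 (6 of expression and 43 of RRBS) could not be assigned to a condition and were not used. RRBS columns were assigned by animal numbers that expression columns share, and replicates are numbered by column order. The labels do not say that samples of a group came from separate animals in each case, so p-values measure only the spread between these samples. A condition with a single library got no test. Read counts could not be recovered, because FPKM keeps only relative depth, estimated here from the smallest values.

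limma (3.58.1 in R 4.3.3) was run on log2(FPKM + 1) for the 11166 rows whose mean reached 1 FPKM in some condition. A single fit took all 18 libraries, with the eBayes trend option, and p-values were adjusted by Benjamini-Hochberg over those rows (adjusted p at most 0.05). A fold on this scale understates the change of low genes. Mean methylation per mouse was compared by two-sided exact permutation tests, adjusted over 3 comparisons. The scripts were tested on simulated data (Python 3.11.15 with pandas 2.3.3, numpy 2.4.6, Biopython 1.88 and matplotlib 3.10.9). Peaks were matched to promoters by an overlap of at least 1 bp. Transcripts and coordinates are those of the GENCODE annotation of mm9, and promoter sequences those of RefSeq on GRCm38.p6, and coordinates were not converted between the builds. Proteins were not compared. A gene of the female-biased list and a tile sequence are not reported here.

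Named genes are all members and other *Mup* genes, *Tet2*, *Tet3* and sex-linked genes, up to 5 of each list with the largest called difference after deletion at 1 day, 3 neighbours with the largest difference, and the 5 genes most correlated with each member without a 0. The further list genes named (*Slco1a1*, *Cyp4a12a*, *Cish*, *Socs2*, *Cux2*, and those called in the other comparisons) were chosen after their values were seen. Alternatives were other pseudocounts, filters, scaling, conditions in the fit, uninjected WT as the control, each library left out, and other limits for methylation.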

Additional observations from a re-analysis of the deposited data

Results flagged for a closer look

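*Mup3* and *Mup21* were lower than the injected controls in each DKO library injected at 1 day and higher than the controls in each DKO library injected at 3 weeks. The log2 differences at 3 weeks were 0.95 for *Mup3* and 1.23 for *Mup21*, against -1.70 and -1.35 at 1 day. Whether the differences at the 2 injection times differ was not tested, since the members were chosen from these values.

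Among the listed genes, the effect of the deletion differed between injection times by a limma interaction test for *Cebpb*, by -1.30 (SE 0.25, adjusted p = 0.0223), and for the lipocalin *Orm3*, by 3.30 (SE 0.67, adjusted p = 0.0286), on the log2(FPKM + 1) scale. The controls injected at 3 weeks included the library with *Xist*, and the test was not repeated without it. Sex may therefore enter these differences. The share of all rows past this test is not given.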

How the results depend on the processing

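FPKM without counts, WGBS of single libraries, RRBS coverage of few lost tiles and the mix of sexes limit these results. No paired analysis was possible because the columns carry none of the labels' replicate numbers, and their animal numbers tie the assays of 1 mouse but no control to a DKO. Besides the values below, 153 values of the main results kept their direction and stayed within the spread or within 1.5 times the count, and 21 moved. The cause of the moves was not tested.

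Compared with uninjected WT, an alternative chosen after the data were seen, the log2 differences of *Mup20*, *Mup3* and *Mup21* after deletion at 1 day were -1.30, -1.002 and -0.48, and that of *Mup20* after deletion at 3 weeks reversed to -0.13. It also reversed, to -0.58, without the third control injected at 3 weeks and without all libraries with *Xist*. With 1 library left out at a time, these differences ranged from -2.99 to -2.59, -1.81 to -1.51 and -1.48 to -1.18 at 1 day, and from -0.58 to 2.32, 0.36 to 1.30 and 0.52 to 1.70 at 3 weeks. From 3 to 15 weeks, *Mup20* gave 11.40 with a pseudocount of 0.1 FPKM and 8.25 with 10, *Mup3* gave 7.92 with 10, and *Mup21* gave 9.38 and 5.89.

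After deletion at 1 day, 2228 rows (20.0% of those tested) passed the limma threshold. With 1 library left out the share ranged from 7.92% to 20.6%, with 885 rows without the third control, 997 without the first DKO library and 1357 without the third. After deletion at 3 weeks, 586 rows (5.25%) passed, against 1309 (11.8%) with median-ratio scaling, 370 (1.91%) without a filter, 332 (4.89%) with a filter of 5 FPKM and 56 (0.560%) with only the 2 conditions fitted. With 1 library left out the share ranged from 0.475% to 3.70%, with 53 rows without the second DKO library, 325 without the first and 206 without the first control. From 3 to 15 weeks, 3719 rows (33.3%) passed, against 2372 (34.96%) with a filter of 5 FPKM. Limits of 25 and 50 points gave 381 and 151 lost WGBS tiles. The RRBS difference over the cluster at 1 day, -0.196 points, reversed to 0.0551 without the second DKO mouse and to 0.0235 without the second control, and ranged from -0.437 to 0.0551.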

Other observations

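The RRBS tile upstream of *Mup3* at chr4:61751501-61751600 also had values in samples outside the comparisons. It was at 15.6% and 35.3% in hepatocytes of 2 adult mice whose insulin receptor gene was deleted in hepatocytes after birth, at 94.6% and 92.9% in 2 cultures of liver cells from newborn mice, at 96.3% in fat of 25 weeks and at 84.6% in neutrophils of 36 weeks. The cultures and the other tissues thus lay with the mice of 3 weeks (100% and 91.9%), and those with the deleted receptor lay above all 6 injected controls (0% to 6.58%). These values were not tested.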
